A study of Mus musculus with 4 samples.

Results

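The report covers 9 genes of the red cell lineage in sorted mouse bone marrow, chosen by symbol from the 32227 genes measured. They are the transcription factors Gata1 and Klf1, the receptors Epor and Tfrc, the membrane proteins Rhd, Ermap and Aqp1, and the carbonic anhydrases Car1 and Car2. Each symbol matched a single gene. Droplet-based single-cell RNA sequencing (PIPseq, in which particles template the droplets) was done on marrow progenitors of wild-type mice that all carried E0771 breast cancer cells, injected 3 days before surgery. One group had ligation of the femoral artery, which cuts the blood flow of the hind limb, and the controls had sham surgery. Marrow was taken on day 9 after surgery and sorted by flow cytometry for cells without lineage markers that carried cKit, whether Sca1 was present or not. There were 4 sham and 4 surgery replicates, 2 of each in each of 2 libraries, called batch 1 and batch 2. Hashtags, short oligonucleotides bound to the cells of a replicate, kept the replicates apart. Age and sex are not in the labels, nor is the number of mice behind a replicate. The p-values therefore speak of variation among these replicates, part of which may be technical.

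The groups rest on the hashtag names. The treatment label of each library names a single treatment, whereas its hashtags name both, and in batch 2 the hashtag entries are listed with surgery first. If those names were wrong, sham and surgery of batch 2 would be swapped. After filters, 26880 cells with a single hashtag were used, 14643 in batch 1 and 12237 in batch 2, with between 1878 and 5872 per replicate. The libraries held 139889351 and 164658229 gene UMIs (unique molecular identifiers, each counting 1 captured transcript) in the kept barcodes, and they shared 5 cell barcodes. The median was 8434.5 UMIs per cell.

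Red cell precursors arise from Kit-positive progenitors. GATA1 opens and drives the erythroid programme, and KLF1 acts with it on globin, membrane and haem genes. The erythropoietin receptor encoded by Epor carries the survival signal, and the transferrin receptor encoded by Tfrc takes up the iron needed for haem. Rhd encodes the Rh blood group protein of the red cell membrane, Ermap an immunoglobulin-like red cell membrane protein, and Aqp1 a water channel. Car1 and Car2 encode cytosolic enzymes that interconvert carbon dioxide and bicarbonate.

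The promoters of 4 members are shown because each holds, close to the start of transcription, the letters that GATA factors are known to bind. The 250 bases before the RefSeq start (GRCm38.p6) were searched on both strands for AGATAA or TGATAA or AGATAG or TGATAG. A window was found for 7 of the 9 members, and Car1 and Car2 had no entry. The letters were in the windows of Klf1, Epor, Rhd and Ermap. They began 80 bases before the start in Klf1, 54 in Epor, 43 in Rhd and 67 in Ermap. Of all 32851 windows in the table, 26.5% held at least 1 such match, so a match in these members is not rare. Stretches inside the annotated genes are left out, capitals mark the match, and each line runs 5′ to 3′ on the gene's strand.
Klf1, chr8:84901732-84901927, plus strand: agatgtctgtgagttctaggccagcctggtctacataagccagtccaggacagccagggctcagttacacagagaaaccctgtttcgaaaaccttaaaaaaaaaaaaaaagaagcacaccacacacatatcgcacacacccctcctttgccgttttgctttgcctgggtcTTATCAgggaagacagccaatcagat
Epor, chr9:21963577-21963826, minus strand: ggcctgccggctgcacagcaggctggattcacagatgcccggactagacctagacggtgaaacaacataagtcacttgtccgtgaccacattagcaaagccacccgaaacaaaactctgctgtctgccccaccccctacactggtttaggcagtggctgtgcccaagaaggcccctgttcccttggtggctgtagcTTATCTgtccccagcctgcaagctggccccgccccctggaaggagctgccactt
Rhd, chr4:134864286-134864535, plus strand: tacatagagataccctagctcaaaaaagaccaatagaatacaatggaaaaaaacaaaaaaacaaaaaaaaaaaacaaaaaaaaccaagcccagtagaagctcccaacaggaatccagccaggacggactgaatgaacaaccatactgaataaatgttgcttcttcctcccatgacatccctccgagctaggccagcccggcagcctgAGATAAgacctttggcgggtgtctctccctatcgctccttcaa
Ermap, chr4:119190012-119190245, minus strand: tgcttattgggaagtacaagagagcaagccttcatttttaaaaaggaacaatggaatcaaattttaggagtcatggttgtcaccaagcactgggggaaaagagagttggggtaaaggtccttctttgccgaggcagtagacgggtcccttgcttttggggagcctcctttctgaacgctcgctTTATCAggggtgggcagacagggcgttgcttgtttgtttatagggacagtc
The match reads TGATAA on the opposite strand in Klf1 and Ermap, AGATAA on the opposite strand in Epor and AGATAA on the gene's own strand in Rhd. The CACC-type letters that KLF1 is known to bind were searched as CCACACCC or CCGCACCC or CCACGCCC or CCGCGCCC. They were in 1 of the 7 members, in a window of Tfrc, where CCGCACCC on the opposite strand began 151 bases before the start. Of all windows, 12.2% held such a match and 1.75% held both kinds. No pair of motif sets overlaps in its letters. Gata1 and Aqp1 had neither set of letters in this window.

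Cells were sorted into gates by their highest marker score, with no member among the markers. The erythroid gate used 12 genes, among them Blvrb, Hemgn, Smim1 and Trim10, and held 2122 cells, 7.89% of all, with a median of 14273 UMIs. Between 115 and 561 cells came from each replicate. Its leading genes against other cells were the globins Hbb-bs, Hba-a1, Hbb-bt and Hba-a2, followed by Cldn13, and 4 members were among its top 10. The gate is read here as cells like erythroid progenitors. Of the gate's cells, 123 lay within 0.25 SD above its limit, and 90 further cells lay as far below it. Summed markers of other classes were lower in the gate than over all cells, by unequal amounts. Levels are in CPM (a gene's UMIs scaled to a total of 1000000 gene UMIs). B cell markers had between 18.2 and 34.5 CPM in sham and between 20.3 and 23.6 in surgery replicates. Pooled over replicates, they had 24.1 CPM in the gate and 870 CPM over all cells. Dendritic markers were less reduced, with 72.8 CPM in the gate and 147 CPM over all cells. Neutrophil-granulocyte markers, which include very abundant transcripts, had between 382 and 581 CPM in sham and between 356 and 520 in surgery replicates.

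The erythroid gate held 11.2% of all gene UMIs and most UMIs of 8 of the 9 genes. Its share was 68.0% for Gata1, 90.6% for Klf1, 88.3% for Epor, 92.9% for Rhd, 91.6% for Ermap, 83.9% for Aqp1, 86.7% for Car1 and 86.3% for Car2. Tfrc was the exception, with 36.6% of its UMIs in the erythroid gate and 26.1% in the neutrophil-granulocyte gate. The genes were chosen as erythroid, so this order is a description and was not tested. Every member had its highest level in the erythroid gate, and the lowest erythroid replicate lay above the highest replicate of the next gate.

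**Figure D1:**
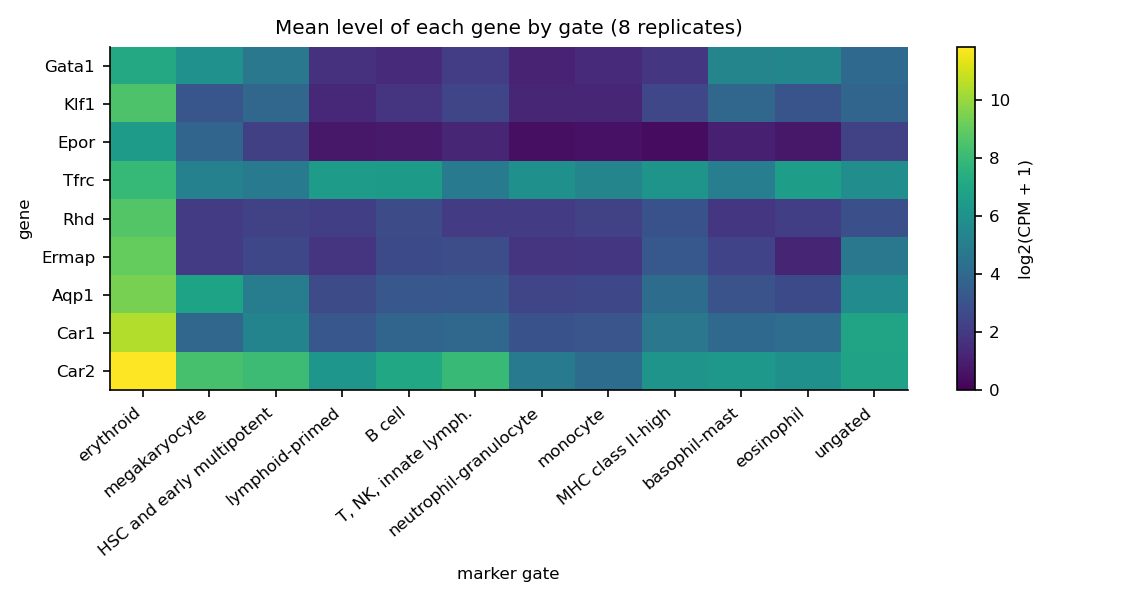
Mean level of the 9 genes (rows) in 11 marker gates and the ungated cells (columns), as log2(CPM + 1) over 8 replicates. Colours are to be read along a row; the erythroid gate is the brightest cell of each row, and Tfrc has the most even row.

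Gata1 had 142 ± 6.15 CPM in the erythroid gate (mean ± SD, n = 8). It had 62.6 ± 14.6 CPM in the megakaryocyte gate and 40.6 ± 6.96 CPM in the basophil-mast gate. GATA1 is known to act in these lineages too. The megakaryocyte, eosinophil and basophil-mast gates overlapped in their replicates, the eosinophil gate being spread between 0 and 93.7 CPM with few cells. The gate for haematopoietic stem cells and early multipotent cells (HSC gate) had 25.4 ± 8.25 CPM. The lymphoid gates and the remaining myeloid gates had means of at most 3.46 CPM.

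Klf1 had 369 ± 19.0 CPM in the erythroid gate. The next gates, basophil-mast with 14.2 ± 3.62 CPM and HSC with 14.0 ± 4.15 CPM, did not differ beyond their spread. Epor had 92.4 ± 7.18 CPM in the erythroid gate and 13.5 ± 4.88 CPM in the megakaryocyte gate, which lay above all others without overlap. Outside these gates Epor had means of at most 4.09 CPM. Tfrc, which dividing cells of many kinds use, had 244 ± 9.90 CPM in the erythroid gate. It had 91.8 ± 13.3 CPM in lymphoid-primed cells and 86.8 ± 8.61 CPM in B cells, and its lowest mean was 27.9 ± 3.75 CPM in the HSC gate. From the eosinophil gate down, each Tfrc level overlapped with the next.

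Rhd and Ermap had few UMIs outside the erythroid gate. Rhd had 409 ± 39.97 CPM in the erythroid gate and means of at most 7.03 CPM elsewhere, where all neighbouring gates overlapped. Ermap had 526 ± 31.7 CPM there, 25.5 ± 8.14 CPM in ungated cells and means of at most 8.66 CPM in the other gates. Aqp1 had 690 ± 21.7 CPM in the erythroid gate and 116 ± 16.2 CPM in the megakaryocyte gate, again without overlap with the next, the ungated cells at 51.7 ± 10.3 CPM.

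The carbonic anhydrases differed from each other outside the erythroid gate. Car1 had 1411 ± 139 CPM in the erythroid gate and was next highest in the 4677 ungated cells, with 121 ± 17.3 CPM, above the HSC gate at 39.5 ± 10.8 CPM without overlap. Car2 had 3664 ± 203 CPM in the erythroid gate. It had 335 ± 69.3 CPM in the megakaryocyte, 274 ± 20.4 in the HSC and 250 ± 48.7 CPM in the T, NK or innate lymphoid gate, and these overlapped with each other. Car2 was lowest in monocytes, with 16.9 ± 1.51 CPM.

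Shares of cells with at least 1 UMI were compared after thinning each cell to 2000 UMIs, which left out 72 of the erythroid gate's cells and 728 of 2906 B cells. The median depths before thinning were 14273 and 2898 UMIs. B cells should lack most of these genes, so their shares serve as a rough guide to free RNA. Free RNA itself was not measured, and doublets may add to these shares. Car1 was seen in 82.2% of erythroid gate cells and 3.08% of B cells, Rhd in 50.2% and 0.964%, and Gata1 in 25.3% and 0.367%. Unthinned, Gata1 was seen in 75.9% of erythroid gate cells and 0.723% of B cells. Car2 was seen in 97.4% and 21.4%, and Tfrc in 37.4% and 15.0%. For the last pair, B cells are no measure of free RNA alone, since these genes are used outside the red cell lineage. In thinned erythroid gate cells, the number of members seen together was most often 5, in 27.1% of 2050 cells, and all 9 were seen in 5 cells.

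Within the erythroid gate the members split along globin share, which is known to rise as red cells mature. Cells were cut in each batch into 3 equal parts by their share of globin UMIs, called early, middle and late. The parts are ranges of a continuous score, not cell types, and no member was used. Car1 had 2096 ± 277 CPM in early, 1279 ± 120 in middle and 973 ± 72.5 CPM in late cells (n = 8 replicates). It was lower in late than in early cells in all 8 replicates, and the ranges did not overlap. Car2 had 2477 ± 275, 3893 ± 142 and 4416 ± 161 CPM and was higher in late cells in all 8 replicates.

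The transcription factors differed in slope. Klf1 had 260 ± 30.2, 380 ± 20.1 and 446 ± 40.6 CPM in early, middle and late cells. Gata1 had 128 ± 11.1, 141 ± 10.3 and 153 ± 9.11 CPM, and its early and late ranges overlapped. Among receptors, Tfrc had 152 ± 10.2, 262 ± 22.4 and 304 ± 20.8 CPM. Epor had 75.8 ± 11.6, 102 ± 15.6 and 96.5 ± 8.55 CPM and was higher in late than in middle cells in 2 of 8 replicates. Of the membrane genes, Rhd had 174 ± 40.7, 433 ± 31.7 and 583 ± 37.1 CPM. Ermap had 441 ± 37.2, 543 ± 48.7 and 584 ± 46.5 CPM, and Aqp1 had 546 ± 57.8, 643 ± 35.7 and 860 ± 36.3 CPM.

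**Figure D2:**
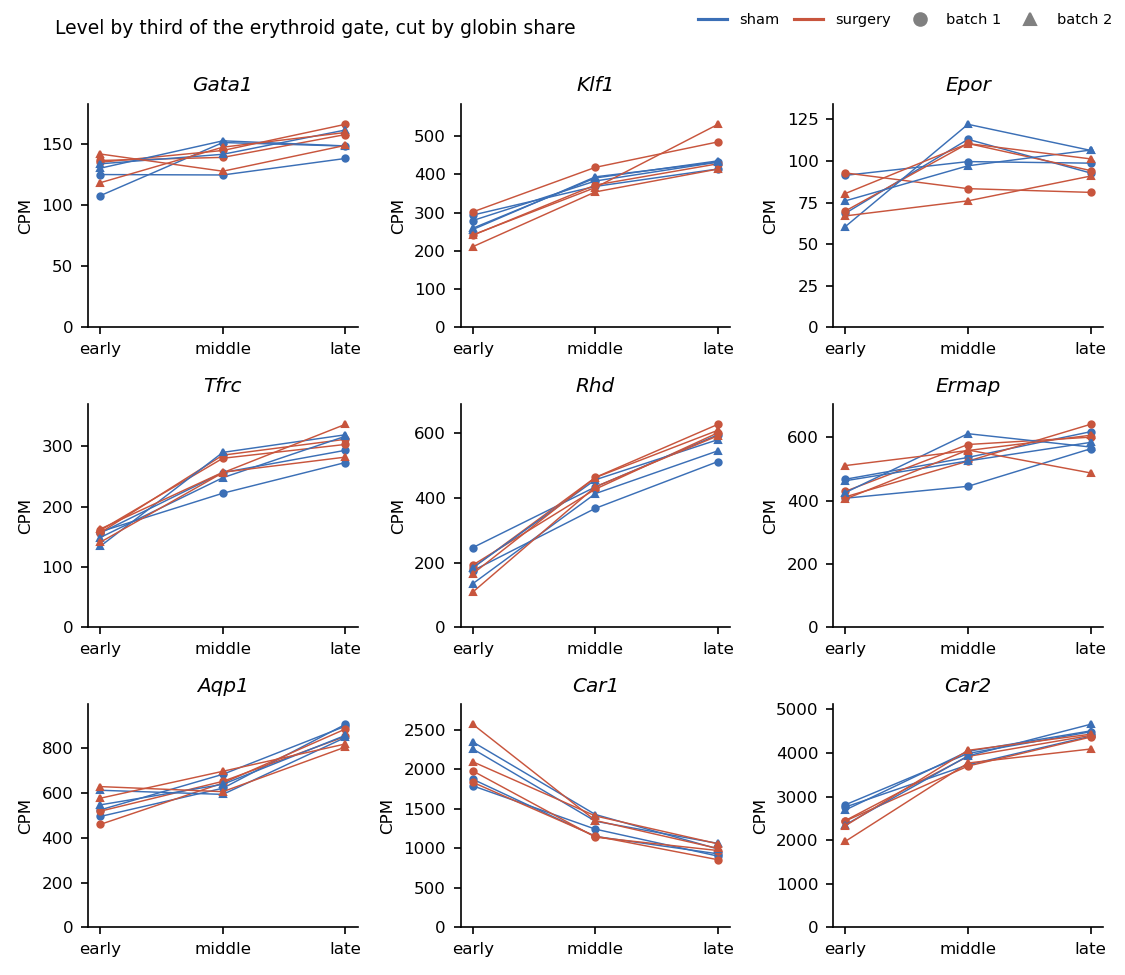
CPM (vertical axis, from 0) in the early, middle and late parts of the erythroid gate, 1 line per replicate, blue for sham and red for surgery, circles for batch 1 and triangles for batch 2. Car1 is lower in late than in early cells in 8 of 8 replicates, while Klf1, Tfrc, Rhd, Ermap, Aqp1, Gata1 and Car2 are higher in late cells in 8 of 8 and Epor in 7 of 8.

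Late and early cells were also compared in edgeR with the replicate as a block. In this fit 66.7% of the 7840 genes tested passed an adjusted p of 0.05, so passing it says little about a single gene. All 9 members passed. The log2 fold change of late over early cells was -0.90 ± 0.04 (SE) for Car1 and 1.03 ± 0.04 for Car2. It was 1.91 ± 0.07 for Rhd, 1.18 ± 0.07 for Tfrc, 0.96 ± 0.06 for Klf1 and 0.85 ± 0.05 for Aqp1. Ermap had 0.60 ± 0.05, Epor 0.54 ± 0.09 and Gata1 0.45 ± 0.07. TMM scaling put these values between 0.17 and 0.20 above the log2 ratios of mean CPM, and no direction differed between both scales.

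Other genes of the lineage gave the frame for this split. Counts of genes that rose or fell are of those that passed an adjusted p of 0.05 in this edgeR fit. Of all 7840 genes tested, 2603 rose and 2630 fell in this sense. Of 20 red cell membrane genes tested, 19 rose and 1 fell from early to late cells, with a median log2 fold change of 1.53. The band 3 anion exchanger Slc4a1 rose by 7.01 ± 0.16, and the adhesion receptor Cd44 fell by 0.52 ± 0.07 on the log2 scale. Of 9 genes of erythropoietin and Kit signalling, 1 rose and 7 fell, the receptor gene Kit having -4.44 ± 0.13 and Jak2 0.24 ± 0.10. Of 13 iron genes 9 rose and 1 fell, with the mitochondrial iron importer Slc25a37 at 2.80 ± 0.11 and Tfr2 at -0.31 ± 0.09. Of 16 transcription partners 8 rose and 6 fell. Gata2, which GATA1 is known to replace, had -4.61 ± 0.20, Myb -3.36 ± 0.09 and Sox6 3.80 ± 0.10. The sort used the cKit protein, whereas the fit measured Kit RNA, which was low in late cells that were still sorted. Cells that no longer carried the protein were outside the sort.

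The design asks how limb ischaemia acts on marrow progenitors. Over all cells, each of the 9 genes was lower after surgery, and none passed the test. edgeR's quasi-likelihood test with batch as a term called 7 of 16852 genes (0.0415%, adjusted p under 0.05) and 0 of the 9 members, whose adjusted p was 0.999949. At an unadjusted p under 0.05 stood 5 members and 757 genes. DESeq2 called 0 members, with 3 at an unadjusted p under 0.05. The median log2 fold change was -0.35 over the members and -0.0021 over all genes tested. From sums over all cells alone, fewer cells of a type and less RNA per cell cannot be told apart.

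Klf1 over all cells had 48.8 and 56.8 CPM in the sham replicates of batch 1 and 58.9 and 35.9 CPM in those of batch 2. The surgery replicates had 42.2 and 41.0 CPM in batch 1 and 33.3 and 38.6 CPM in batch 2. The groups overlapped, since sham 2 of batch 2 lay below 3 of the surgery replicates. The log2 fold change was -0.36 ± 0.14, with -0.36 in batch 1 and -0.37 in batch 2. It was -0.19 ± 0.10 without sham 1 of batch 2, the highest replicate, and -0.49 ± 0.09 without sham 2 of batch 2, the lowest sham replicate. Gata1 had 22.9 and 26.3 CPM in sham and 21.3 and 22.3 in surgery replicates of batch 1, and 28.8 and 20.2 against 19.2 and 22.2 CPM in batch 2. Its groups overlapped too, and its log2 fold change was -0.20 ± 0.11.

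The 2 enzymes had the same picture over all cells. Car2 had 518 and 612 CPM in sham and 456 and 394 CPM in surgery replicates of batch 1. In batch 2 it had 634 and 385 CPM in sham and 315 and 445 CPM in surgery replicates. The log2 fold change was -0.40 ± 0.16. Car1 had 188 and 196 CPM against 164 and 142 CPM in batch 1, and 237 and 166 CPM against 143 and 167 CPM in batch 2, sham first. Only the lowest sham and the highest surgery replicate, both of batch 2, crossed, and the log2 fold change was -0.34 ± 0.11.

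The receptors and membrane genes were alike except for Tfrc. Their log2 fold changes over all cells were -0.41 ± 0.18 for Epor, -0.34 ± 0.20 for Rhd, -0.35 ± 0.17 for Ermap and -0.35 ± 0.14 for Aqp1. Tfrc, with most of its UMIs outside the erythroid gate, had -0.06 ± 0.07. In both batches each of the 9 values was below 0, and no difference between the batches passed the test. The size of these values depended on the sham replicates of batch 2, though not on them alone. Without sham 1 of batch 2 they lay between -0.27 and -0.0093, with Rhd at -0.12 ± 0.18, Ermap at -0.17 ± 0.15, Car2 at -0.24 ± 0.14 and Gata1 at -0.08 ± 0.09. Without sham 2 of batch 2 they lay between -0.54 and -0.10. In both cases 0 members and 0 genes were called. With each cell thinned to 2000 UMIs, Gata1 had -0.04 ± 0.10, Car1 -0.20 ± 0.09, Aqp1 -0.22 ± 0.11 and Tfrc 0.02 ± 0.07.

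The erythroid gate's part of each replicate was lower on average after surgery, with overlap. It held 7.19% and 9.55% of the cells of the sham replicates and 7.36% and 5.92% of the surgery replicates of batch 1. In batch 2 it held 10.1% and 6.38% against 6.12% and 7.98%. The mean was 8.32% ± 1.81 in sham and 6.84% ± 0.986 in surgery replicates (SD, n = 4 each; two-sided exact permutation test over 70 splits, p = 0.229, smallest possible 0.0286). Adjusted over the 11 gates and the ungated cells it was 0.814. The gate's share of all gene UMIs was 12.5% ± 2.70 in sham and 9.33% ± 1.46 in surgery replicates (exact permutation p = 0.114, n = 4 each), a log2 ratio of -0.42. Median UMIs per gate cell were 14689 and 12695 in sham and 12473 and 12576 in surgery replicates of batch 1. In batch 2 they were 17894 and 17077 against 15220 and 15331. Over all cells the batch 1 medians were 5860.5 and 6805.5 against 7206.5 and 6269. Those of batch 2 were 10721 and 10291 against 12393.5 and 11425. The share of UMIs thus reflects both cell numbers and UMIs per cell, whose parts were not tested.

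**Figure D3:**
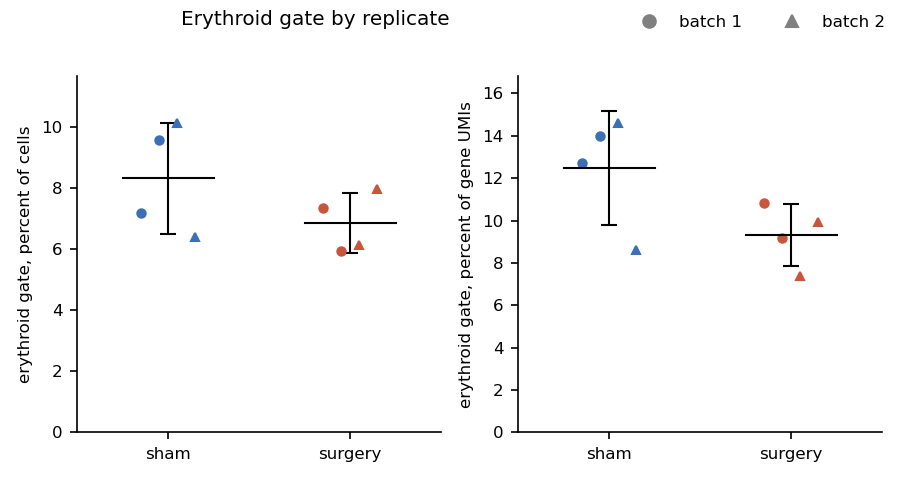
Percent of cells (left) and of gene UMIs (right) in the erythroid gate, 1 point per replicate, circles for batch 1 and triangles for batch 2, bars for the mean and SD of 4. Sham 2 of batch 2 lies among the surgery replicates in both panels, and sham 1 of batch 1 does so in the left panel.

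Inside the erythroid gate, the members' levels were close between the groups. None of the 10113 genes tested was called by edgeR (0%), with 331 genes and 0 members at an unadjusted p under 0.05, and DESeq2 also called 0 genes, with 101 at that level. Log2 fold changes of the members lay between -0.09 and 0.05, with SE between 0.04 and 0.08, and 5 were below and 4 above 0. Their median was -0.0023, beside -0.0016 over all genes.

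Gata1 inside the gate had 129, 140, 148 and 143 CPM in the sham replicates and 144, 148, 142 and 138 CPM in the surgery replicates, batch 1 first. Its means were 140 ± 7.99 and 143 ± 4.28 CPM, and its log2 fold change was 0.01 with a 95% confidence interval from -0.12 to 0.13. Klf1 had 356, 377, 376 and 360 CPM against 353, 399, 386 and 343 CPM, so the surgery replicates spread around the sham ones. Its interval ran from -0.12 to 0.10.

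Car1 inside the gate had 1331, 1235, 1450 and 1605 CPM in the sham and 1323, 1295, 1604 and 1442 CPM in the surgery replicates. Both batch 2 groups were higher than batch 1, and the interval of the log2 fold change ran from -0.08 to 0.08. Car2 had 3591, 3905, 3906 and 3624 CPM against 3665, 3480, 3330 and 3808 CPM, with overlap. Its log2 fold change of -0.09 ± 0.04 was the lowest of the 9, and its interval ran from -0.18 to 0.01.

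Among the others, Epor had means of 95.01 ± 3.07 and 89.8 ± 9.64 CPM in sham and surgery replicates. Its log2 fold change of -0.08 had an interval from -0.25 to 0.08. Tfrc had 239 ± 12.01 and 249.5 ± 3.76 CPM, Rhd 399 ± 54.1 and 419 ± 23.3 CPM, and Ermap 523 ± 35.7 and 529 ± 32.2 CPM. Aqp1 had 695 ± 25.5 and 685 ± 19.5 CPM. For each of these genes the replicates of both groups overlapped.

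**Figure D4:**
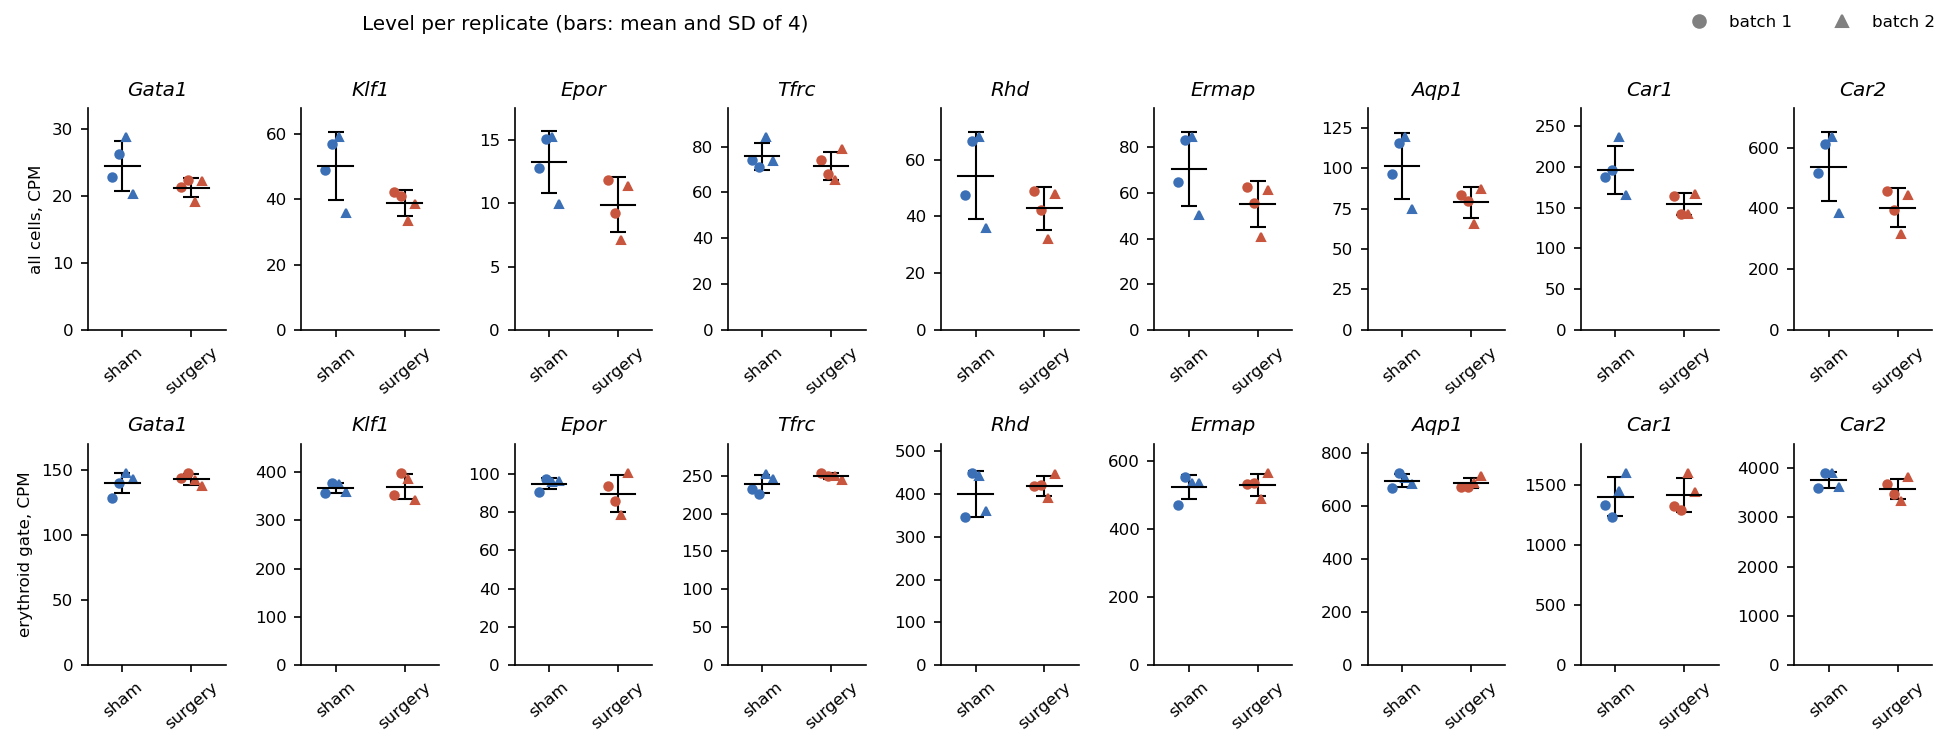
CPM of each gene per replicate over all cells (top) and in the erythroid gate (bottom), axes from 0, circles for batch 1 and triangles for batch 2, bars for the mean and SD of 4. In the top row the surgery means lie below the sham means for all 9 genes, and in the bottom row the groups overlie each other.

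The cells outside the erythroid gate gave the other side of this comparison. Among these 24758 cells, 6 of 16535 genes were called (0.0363%) and 0 members, with 592 genes and 0 members at an unadjusted p under 0.05. Members' log2 fold changes lay between -0.13 and 0.13, 4 below and 5 above 0. Klf1 had 0.06 ± 0.10, Car1 -0.06 ± 0.07 and Car2 0.00 ± 0.06 there. Over all cells, 7 members had values that rounded to between -0.41 and -0.34. With all UMIs used, no member had such a value inside the gate or in the pooled cells outside it. In single gates outside it, on fewer cells, values ran from -0.77 (Car2, dendritic marker gate) to 0.50 (Gata1, HSC gate). With each cell thinned to 2000 UMIs, Epor inside the gate had -0.34 ± 0.17, against -0.08 ± 0.08 unthinned. The gate's share of UMIs had a log2 ratio of -0.42. Its part in the values over all cells was not tested.

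**Figure D5:**
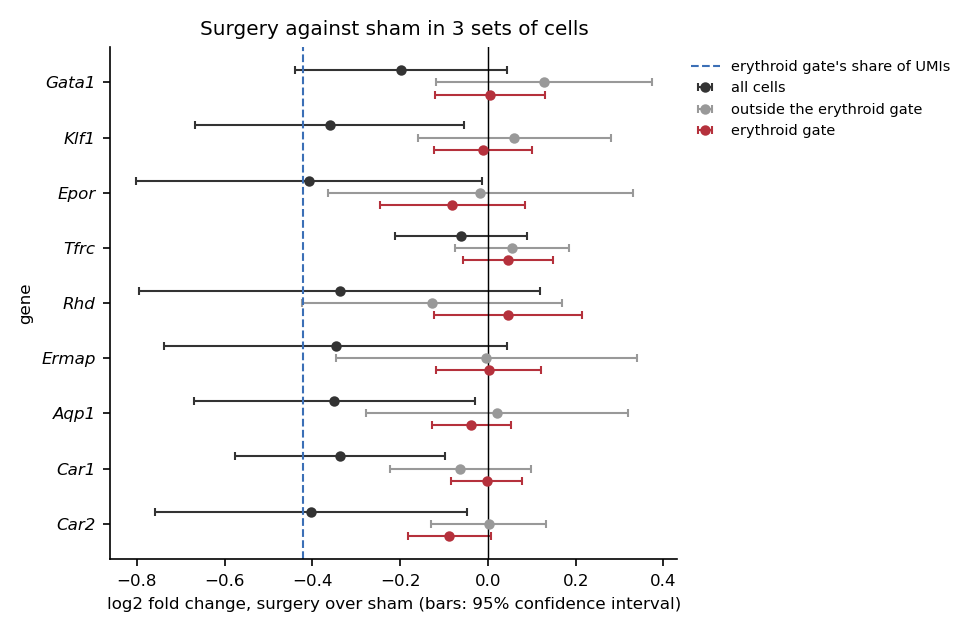
Log2 fold change of surgery over sham for each gene, with 95% confidence intervals from edgeR, over all cells (black), outside the erythroid gate (grey) and inside it (red). The dashed line is the log2 ratio of the gate's share of UMIs, -0.42; black points other than those of Tfrc and Gata1 lie between -0.41 and -0.34, and red points lie between -0.09 and 0.05.

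The parts of the gate did not differ between the groups beyond the spread. Early cells made up 35.3% ± 7.17 of the gate in sham and 36.2% ± 7.54 in surgery replicates (exact permutation p = 0.771, n = 4 each), and late cells 33.2% ± 3.75 and 31.8% ± 2.45 (exact permutation p = 0.571, n = 4 each). Fitted separately, the parts gave 0 of 8067 called genes in early cells (0%), 3 of 8071 in middle cells (0.0372%) and 0 of 7445 in late cells (0%). Those in middle cells were Bc1, Gm36264 and Tbc1d22b, all lower and no members, named after their values were seen. No member passed in any part, with 1 member and 425 genes in early cells, 0 members and 310 genes in middle cells, and 0 members and 260 genes in late cells at an unadjusted p under 0.05.

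That member was Car2. In early cells it had 2760, 2813, 2693 and 2353 CPM in the sham and 2451, 2441, 1974 and 2332 CPM in the surgery replicates, batch 1 first. The groups overlapped. The log2 fold change was -0.23 ± 0.06, with -0.19 in batch 1 and -0.27 in batch 2, and the adjusted p was 0.566. In middle cells it was -0.04 ± 0.04 and in late cells -0.05 ± 0.04. Whether the early value differed from the later ones was not tested. The early value also depended on how the gate was divided: with early cells chosen by their share of late red cell membrane transcripts in place of globin, Car2 had 2744 ± 247 CPM in sham and 2580 ± 224 CPM in surgery replicates, with overlap.

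In other gates, between 1 and 9 members passed the filter on low counts, and edgeR called none. The called share of all genes was 0.0645% in the HSC gate, 0.286% in lymphoid-primed cells, 0.031% in B cells, 0.0634% in monocytes, 0.0391% in the neutrophil-granulocyte gate and 0.0168% in ungated cells. It was 0% in the megakaryocyte, basophil-mast and T, NK or innate lymphoid gates. A gate scored on dendritic markers, but led by B cell genes beside MHC class II genes and called MHC class II-high here, had 0.0724%. The eosinophil gate had fewer than 10 cells in at least 1 replicate and was not tested.

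In the HSC gate, where GATA1 marks the first steps towards red cells and platelets, 2 of 7 tested members had an unadjusted p under 0.05, Gata1 and Car1, beside 418 of 10858 genes (3.85%). Gata1 had 25.6, 13.7, 29.4 and 18.4 CPM in the sham and 19.6, 24.9, 39.6 and 31.7 CPM in the surgery replicates, resting on between 35 and 107 UMIs each. The groups overlapped, and the log2 fold change was 0.50 ± 0.18 with an adjusted p of 0.999543. Car1 there had 0.24 ± 0.11. In the megakaryocyte gate 2 of 6 tested members were at that level, Tfrc with 0.47 ± 0.21 and Car2 with 0.20 ± 0.10, beside 359 of 8557 genes (4.2%). The T, NK or innate lymphoid gate had Car2 at 0.36 ± 0.17 as its 1 tested member, beside 180 of 4073 genes at that level (4.42%). The MHC class II-high gate had Car2 at -0.77 ± 0.31, from 3 to 60 UMIs per replicate, beside 401 of 5525 genes (7.26%). The adjusted p of these values was between 0.596 and 0.9998. In the lymphoid-primed, B cell, neutrophil-granulocyte, monocyte, basophil-mast and ungated cells, 0 members had an unadjusted p under 0.05, among 614, 336, 572, 543, 318 and 548 genes at that level.

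Related genes over all cells had the direction of the members in part. Of 21 red cell membrane genes, 20 were lower after surgery and 0 were called, with a median log2 fold change of -0.24. The share of lower genes was 51.1% over all genes tested. Examples with values below the list's median were band 3 (Slc4a1) at -0.57 ± 0.34 and the membrane protein gene Epb42 at -0.55 ± 0.21. Of 16 transcription partners 11 were lower, with a median of -0.10, and of 16 genes of erythropoietin and Kit signalling 8 were lower. Of 14 iron genes 10 were lower, with a median of -0.04. Inside the erythroid gate, 12 of 20 membrane genes were lower with a median of -0.0042, and no gene of the lists was called there. The single call among these lists in any gate was Gfi1b, a repressor that works with GATA1, which rose in lymphoid-primed cells (1.33 ± 0.25, adjusted p = 0.00974).

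Across the 11 gates and the ungated cells, 9590 further genes with at least 20 CPM in some gate were compared with each member by Pearson's r of mean log2(CPM + 1). The closest to Rhd was Ubac1 (r = 0.986), to Ermap and to Car1 Tspo2 (0.985 and 0.977), and to Aqp1 Aldh1a1 (0.975). Gata1 was closest to Dpf3 (0.971) and Klf1 to Ces2g (0.964), which was itself a gate marker, followed by Sox6 (0.953). Car2 was closest to Nfia (0.939) and Tfrc to Eif2b2 (0.870), the lowest of these values. The 12 points share libraries and depth, so the values are descriptions.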

How the data were processed

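The authors deposited 1 matrix of raw UMI counts for each library, with the hashtags as extra features. Cell Ranger and GRCm38 are named as tool and build in the submitters' processing notes. The tool's version, and how strands and reads matching several genes were counted, are not given in the sources used here. Hashtag features, 22.2% and 16.1% of all counts, stayed out of library sizes and tests.

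Barcodes with at least 500 genes, 1000 UMIs and at most 10% mitochondrial UMIs were kept (17065 of 18094 and 13568 of 14179), and those with exactly 1 hashtag at 200 counts or more were used. No hashtag reached that number on 1785 and 982 barcodes, and several did on 602 and 322. Scrublet, run per library in scanpy 1.11.5 (Python 3.11.15), called 0.592% and 0.671% as doublets, which were removed; it called 9.80% and 16.5% of barcodes with several hashtags, so doublets of 1 hashtag will largely remain. A cell entered the gate with its highest marker score if that was at least 1 SD above its batch mean and at least 3 markers were seen. This scoring rule was chosen after seeing the data. Of 13 erythroid markers 12 were found by symbol. Macrophage and epithelial or tumour markers were summed as checks and formed no gate; over all cells they had between 37.6 and 106 CPM and between 11.2 and 24.7 CPM per replicate.

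UMIs were summed per hashtag replicate and set of cells, and the groups of 4 were tested against each other in edgeR 4.0.16 (R 4.3.3; filterByExpr, TMM, quasi-likelihood test, batch as a term, Benjamini-Hochberg adjustment over all genes of a comparison). Within-batch contrasts and their difference came from 1 mean per batch and group. DESeq2 1.42.0 was an alternative. The fit of late against early cells, and that of cells outside the erythroid gate, were added after the data were seen. All 9 members were named throughout; other named genes were list members past the threshold, examples of each list, and the gene most like each member across gates, which for Epor is not reported here. Only the edgeR fit was checked on simulated counts, with a fixed spread and no batch effect. The changes simulated were larger than those of the members between the groups. That check does not speak of power for small differences. Gene lists and members were chosen with earlier results of these data known. Intervals cover these replicates only. Alternatives were other hashtag minimums, doublets kept, thinned cells, other gate limits, no low-count filter, no batch term, a replicate block and each replicate left out.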

Additional observations from a re-analysis of the deposited data

Results flagged for a closer look

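Among 118 groups of 4 replicates whose values were looked at, 2 had a replicate far from the other 3; chance alone gives this in about 1 of 20 groups. Gata1 outside the erythroid gate had 6.38 CPM in surgery 1 of batch 1, while the other surgery replicates had between 9.33 and 9.64 CPM. Klf1 in late erythroid cells had 414 CPM in sham 1 of batch 1, below the 432 to 435 CPM of the other sham replicates.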

How the results depend on the processing

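No member was called under any of the alternatives, over all cells or in the erythroid gate. The count of called genes over all cells, 7, was 21 with DESeq2, 22 without a low-count filter, 0 without a batch term and 2 with cells thinned to 2000 UMIs. Leaving out 1 replicate gave between 0 and 8 calls, 8 without sham 1 of batch 1 and at most 2 without any other replicate. In the erythroid gate the count was 14 without a low-count filter and 0 otherwise. A replicate block of same-numbered replicates within a batch gave 0 calls over all cells. The numbers share no stated origin, and deviations of same-numbered replicates correlated at 0.0038 and 0.0012 over all cells and -0.013 and -0.13 in the erythroid gate.

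Of 144 member values over all cells under 16 alternatives, 143 stayed below 0, the exception being Tfrc with thinned cells (0.021). Their size moved more: leaving out 1 replicate gave Gata1 between -0.297 and -0.0768, Klf1 between -0.494 and -0.193, Rhd between -0.502 and -0.122, Ermap between -0.483 and -0.170, Epor between -0.557 and -0.267, Aqp1 between -0.483 and -0.204, Car1 between -0.436 and -0.218, Car2 between -0.538 and -0.241 and Tfrc between -0.110 and -0.0079, the values nearest 0 being those without sham 1 of batch 2 except for Tfrc (without surgery 1 of batch 2). Of 162 in the erythroid gate, 30 had the other sign, all between -0.0915 and 0.0268. Without the filter these were Gata1 (-0.0144) and Ermap (-0.0179). With thinned cells they were Tfrc (-0.0915), Ermap (-0.0696) and Car1 (0.0099), and Epor kept its sign but moved from -0.0813 to -0.342. Ermap had -2.31e-05 and -0.0148 at hashtag minimums of 100 and 500, and -0.00916 with the gate at 0.5 SD. Car1 had 0.0193 at 500 and 0.0021 with doublets kept, and Klf1 had 0.0122 with the gate at 2 SD. Leaving out 1 replicate gave Gata1 between -0.0305 and 0.0391, Klf1 between -0.0495 and 0.0255, Rhd between -0.0247 and 0.135, Ermap between -0.0474 and 0.0508, Aqp1 between -0.0628 and 0.000206 and Car1 between -0.026 and 0.0268. The cause was not tested. The erythroid share of cells differed by between -1.79 and -1.06 percentage points under other settings and between -2.12 and -0.866 leaving out 1 replicate, with no exact p under 0.114. The -1.79 came from leaving out cells under 2000 UMIs with the gates unchanged. At a hashtag minimum of 500 the mean share was 6.56% in sham and 5.50% in surgery replicates. The difference there was -1.75 in batch 1 and -0.376 in batch 2, against -1.73 and -1.21 in the main setting. The intervals given are not adjusted for the number of genes tested, so they do not mark the smallest difference that could be called. Car1 over all cells had an interval from -0.58 to -0.10 and an adjusted p of 0.999949 in edgeR. Small differences may be missed with 4 replicates a group.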
